A study of Mus musculus with 6 samples.

Results

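The interfollicular keratins are the keratin genes that the epidermis between hair follicles uses to build its intermediate filaments. The genes described are Krt5, Krt14 and Krt15, which are expressed in the basal layer, and Krt1, Krt10, Krt2 and Krt77, which are expressed above it. They were chosen by name, and their probes were found through the RefSeq accession on the array. These 7 genes were represented by 10 of the 55681 probes, and 6 of the 7 were among the 14135 genes tested. Tail epidermis, separated from dermis with EDTA, was taken from wild-type C57BL/6 mice. Young mice were 8 weeks old (n = 3). The aged group (n = 3) holds a 22-month sample, replicate 1, and the 25-month samples 2 and 3. RNA of each sample was amplified to cDNA and read on a 1-colour array, and the comparison asked which transcripts differ between aged and young epidermis. The labels do not say whether the samples came from separate animals, so the p-values cover only the spread among these 6 arrays. Y-linked transcripts were present in 1 sample of each group and not detected in the others, so each group holds more than 1 animal.

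A keratin filament is an obligate polymer of a type I and a type II keratin. Basal keratinocytes, which divide and hold the epidermis to the basement membrane, pair the type II keratin Krt5 with the type I keratin Krt14, and Krt15 is a further type I keratin of basal cells and of the hair follicle bulge. Cells that leave the basal layer switch to the pair of Krt1 (type II) and Krt10 (type I), and later add Krt2. In tail skin the epidermis is divided into scales and interscales, and Krt10 is a keratin of the interscale. In such a mixed sample, fewer cells of a type and less RNA per cell cannot be told apart.

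The type I genes Krt10, Krt15 and Krt14 lie on mouse chromosome 11, and the type II genes Krt5, Krt2, Krt1 and Krt77 on chromosome 15, where Krt2, Krt1 and Krt77 follow each other without another keratin gene between them. The sequences around the transcription start are shown so that those of basal and suprabasal genes can be compared. RefSeq promoter entries of GRCm38.p6 matched 5 of the 7 genes. The windows run from 80 bases before the start to 20 bases from it onward, all on the minus strand, and capitals mark the words TATAAA and TATATA, searched on both strands and allowed to overlap.
Krt5, chr15:101712886-101712985: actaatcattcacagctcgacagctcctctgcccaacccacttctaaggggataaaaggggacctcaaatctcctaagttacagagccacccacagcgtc
Krt14, chr11:100206011-100206110: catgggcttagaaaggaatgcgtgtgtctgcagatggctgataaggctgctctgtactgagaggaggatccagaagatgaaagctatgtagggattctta
Krt10, chr11:99389345-99389444: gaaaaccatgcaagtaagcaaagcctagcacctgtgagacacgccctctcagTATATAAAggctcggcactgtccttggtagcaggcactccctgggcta
Krt2, chr15:101818150-101818249: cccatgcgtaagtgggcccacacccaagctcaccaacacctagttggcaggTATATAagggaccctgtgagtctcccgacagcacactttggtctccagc
Krt77, chr15:101869686-101869785: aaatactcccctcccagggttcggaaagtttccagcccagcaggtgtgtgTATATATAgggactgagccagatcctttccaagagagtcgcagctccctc
The 3 suprabasal windows held at least 1 of the words, beginning 28, 29 and 30 bases before the start in Krt10, Krt2 and Krt77, and the 2 basal windows held neither. Only exact words were counted, so the near match gataaaa in the Krt5 window was not. A window without a word is thus not shown to lack a similar element. Of all 32851 entries, 6.77% held a word in the same window. The entry of Krt14 begins 1480 bases inside the outer end of the annotated gene, that of Krt10 8085 bases and that of Krt2 787 bases inside, so other starts exist for these genes.

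No interfollicular keratin gene passed the threshold between aged and young epidermis. Krt14 had the smallest adjusted p, with 1.20 times the young level in aged epidermis. Krt5, its filament partner, was at 1.09 times and the suprabasal keratins Krt10 and Krt2 were each at 1.01 times. Krt1 was at 0.742 and Krt15 at 0.812 times the young level, both with wide spread. Of the 6 tested genes 4 had a difference above 0 and 2 below, with a median of 0.016 log2 units, beside a median of 0.09 over all 14135 genes. Only Krt5 had aged values that did not overlap the young values, where 27% of all genes did not overlap and 19.5% lay higher, and 0 of 6 genes had an unadjusted limma p under 0.05, where 17.7% of all genes did. The threshold was a Benjamini-Hochberg adjusted p of 0.05 over all features, which 0.0778% of the genes met, or 11 genes. With the replicate number as a block this count was 0 genes, with 2710 at an unadjusted p under 0.05, or 19.2%. It was also 0 without any single array other than aged replicate 1, and 809 without that array. No keratin gene of the 6 passed in any of these fits.

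**Figure D1:**
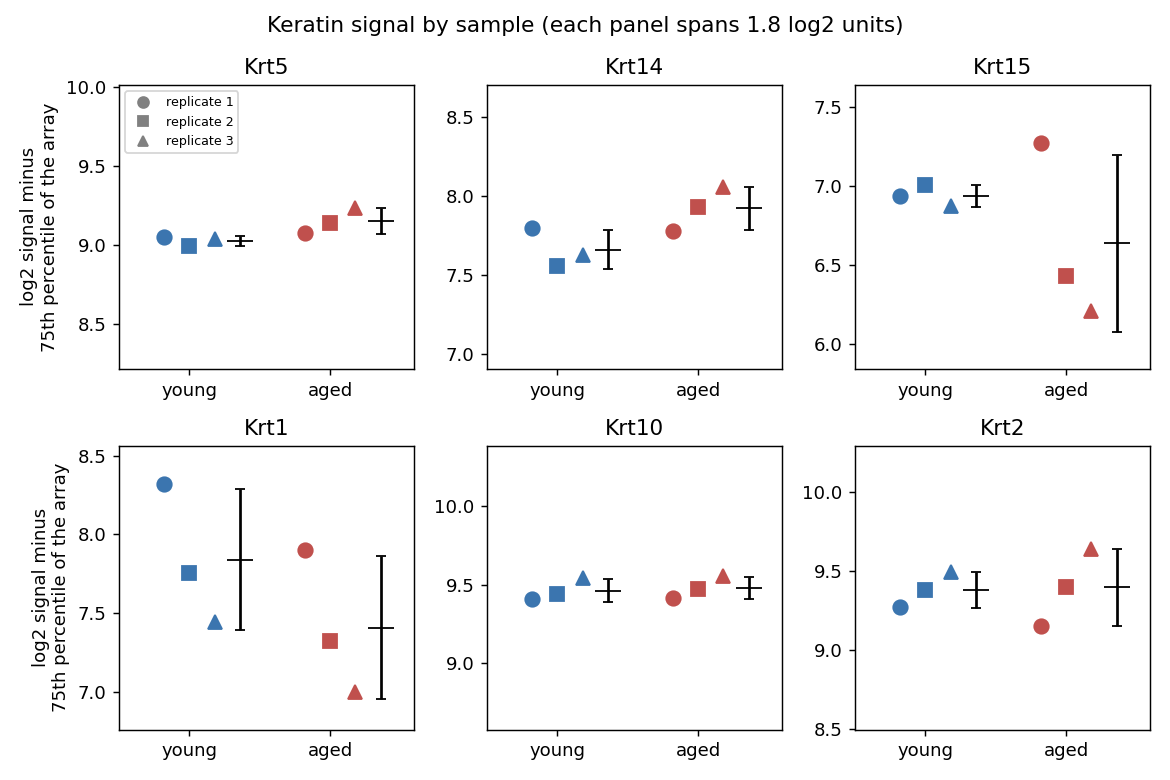
Keratin signal in each sample, as log2 signal minus the 75th percentile of its array (y axis), for the young and aged groups (x axis). Points are samples with the replicate number as the marker, and bars are the group mean and SD (n = 3). Krt10 and Krt5 vary little, Krt1 varies widely within both groups, and Krt15 spreads in the aged group, from 6.21 to 7.27.

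Each array was scaled to the 75th percentile of its processed signals, so that a log2 value of 0 is the signal at that percentile. Levels of different genes are not compared, since they come from different probes. Krt5 stood at 9.05, 8.99 and 9.04 in young replicates 1, 2 and 3 and at 9.07, 9.14 and 9.24 in aged replicates 1, 2 and 3. All 3 aged samples lay above the 3 young samples, with aged replicate 1 just above young replicate 1. The difference was 0.12 ± 0.11 log2 units (SE, n = 3 per group, 95% interval -0.13 to 0.38, limma adjusted p = 0.557).

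Krt14 stood at 7.79, 7.55 and 7.63 in young and at 7.78, 7.93 and 8.05 in aged replicates 1, 2 and 3. The groups overlapped in a single place, where aged replicate 1 lay just below young replicate 1, while both aged samples of 25 months were above every young sample. The difference was 0.26 ± 0.13 log2 units (SE, n = 3 per group, 95% interval -0.05 to 0.58, limma adjusted p = 0.336). The interval runs from 0.965 to 1.49 times the young level, so it includes an unchanged level. The ratio of Krt5 to Krt14 within an array, set to a young mean of 0, was -0.11, 0.071 and 0.042 in young and -0.075, -0.16 and -0.19 log2 units in aged replicates 1, 2 and 3, a mean shift of -0.14. The young and aged ratios overlapped.

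Krt15 was the basal keratin with the lower aged mean. It stood at 6.93, 7.0 and 6.87 in young and at 7.27, 6.43 and 6.21 in aged replicates 1, 2 and 3. The young samples lay close together, whereas the aged samples fell on both sides of them, with the 22-month sample highest of all 6 and both 25-month samples lowest. The SD was 0.067 in the young and 0.56 in the aged group, and the difference was -0.30 ± 0.28 log2 units (SE, n = 3 per group, 95% interval -0.98 to 0.38, limma adjusted p = 0.593). Aged replicates 1 and 3 decide this value: it was -0.62 without aged replicate 1 (limma adjusted p = 0.0628) and -0.086 without aged replicate 3 (limma adjusted p = 0.890). With 1 aged sample of 22 months, age in months and this single sample cannot be told apart.

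Because Krt15 is shared by basal cells and follicle cells, its values stand beside genes of the follicle. Of 8 follicle stem cell genes 7 were tested and 7 of 7 had a difference below 0, with a median of -0.67 that was -0.25, with 6 of 7 below 0, without aged replicate 3. The median deviation of these genes from the young mean was -0.05, -0.48 and -1.39 log2 units in aged replicates 1, 2 and 3. Their summed level, in units of the array's 75th percentile, was 30.99 to 38.2 in young and 13.5 to 34.6 in aged samples. Lgr5, a receptor gene of follicle stem cells, stood at 0.57, 0.81 and 0.24 in young and at -0.10, -0.91 and -2.39 in aged replicates 1, 2 and 3. Its difference was -1.67 ± 0.57 log2 units (limma adjusted p = 0.220), and every aged sample was below every young sample. The T-box gene Tbx1 differed by -0.90 ± 0.40, the surface antigen gene Cd34 by -0.68 ± 0.31 and the stem cell marker gene Lrig1 by -0.67 ± 0.45.

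The keratins of the hair itself were lower on the same arrays. All 9 hair shaft keratin genes tested (of 11 listed) had a difference below 0, with a median of -3.64, 6 of them at an unadjusted limma p under 0.05 and 0 past the threshold. All 8 inner root sheath keratins had one too, with a median of -3.15 and 7 at an unadjusted p under 0.05. Among all genes 6.3% were lower at that level. Without aged replicate 3 the medians were -1.92 and -1.93, and every gene of both lists stayed below 0. Krt35 and Krt31, which are keratins of the tail scale as well as of the hair shaft, differed by -3.95 ± 1.40 and -3.37 ± 1.28, whereas the other tail scale keratins listed, Krt36 and Krt84, differed by -0.048 ± 0.16 and -0.016 ± 0.14. The median deviation of the hair shaft keratins was -0.69, -3.34 and -6.62 in aged replicates 1, 2 and 3. Their summed level was 824.1 to 1449 in young and 53.6 to 730.3 in aged samples. Krt83 and Krt85 were not among the 9 listed genes for which a probe was found by RefSeq accession, so no value is given for them. Aged replicate 1, where Krt15 was highest, thus had the smallest follicle deviations among aged samples, and the part of follicle cells in the Krt15 difference was not tested. All 8 melanocyte genes lay below 0 as well, with a median of -1.30 and deviations of -0.15, -1.70 and -2.08 in aged replicates 1, 2 and 3. Of these 8 genes 7 were detected in aged replicate 2 and 6 in aged replicate 3, and the melanocyte median was -0.97 with normexp background correction. The 6 Langerhans cell genes had a median of -1.70, but their deviation was largest in aged replicate 1, at -3.94, and 0.0021 in aged replicate 3. Of the 6 genes 4 were detected in aged replicate 1, so the deviation there includes values below detection. The Langerhans median was -0.63 without aged replicate 1 and -0.78 with normexp background correction.

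Genes of dermal fibroblasts, which an epidermal preparation can carry over, also differed. Of 6 listed genes 4 were tested, 3 had a difference below 0 and 2, both collagen genes, passed the threshold. With detection required on all 6 arrays only 2 of the genes were left, Col1a2 and Dcn, so neither of these calls remained. Col1a1 stood at -1.87, -1.41 and -1.31 in young and at -4.34, -4.56 and -4.54 in aged replicates 1, 2 and 3, and fell by 2.95 on the log2 scale (SE 0.18, limma adjusted p = 0.0283). Col3a1 was well above background on all 3 young and on 0 aged arrays, so it entered the test through the young group alone. For a lower bound, aged values under the lowest detected signal of their array were raised to that signal. Col3a1 was then at least 5.14-fold lower in aged samples. Its limma adjusted p of 0.0467 rests on aged values below detection, and no conclusion is drawn from it. Col1a2 differed by -2.08 ± 0.35 (limma adjusted p = 0.111), without overlap. Dcn, which encodes decorin, stood at 4.34 in aged replicate 1, above every young sample, and differed by 0.21 ± 0.80. The summed level of the 4 genes was 5.30 to 8.15 in young and 2.51 to 20.6 in aged samples. The median difference of -2.24 was -0.85 with normexp background correction. Lum and Pdgfra had no named probe well above background on any array, and a missing probe was not told apart from a low signal. The part of dermal RNA in the keratin values was not tested.

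**Figure D2:**
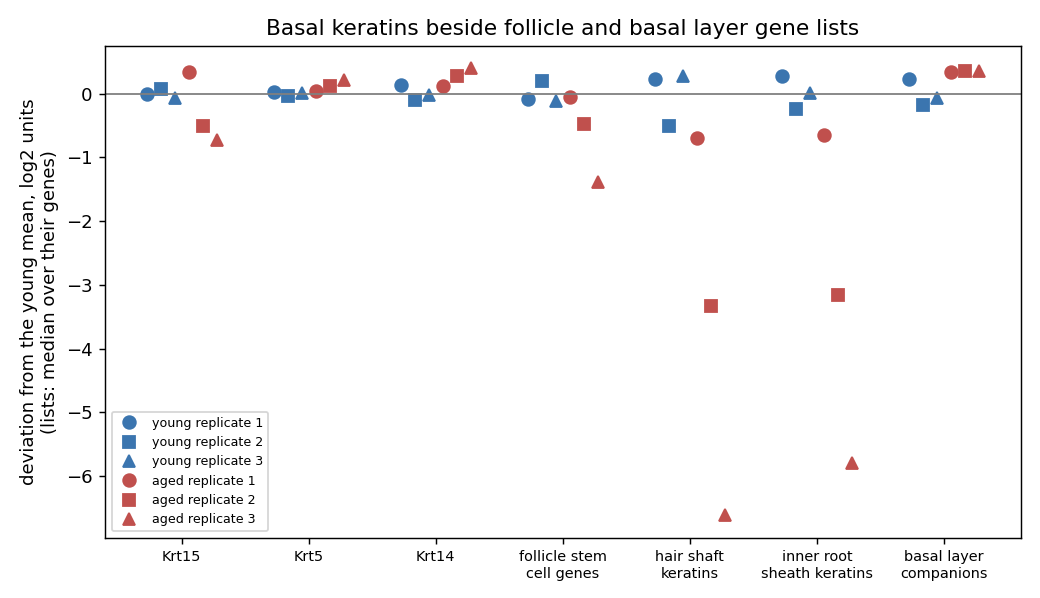
Deviation from the young mean in log2 units (y axis) of 3 basal keratins and, for 4 gene lists, the median deviation over their genes, by sample. Krt15 and the follicle lists are lowest in aged replicates 2 and 3, while Krt5, Krt14 and the basal layer companions are not.

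Other genes of the basal layer were above the young mean. All 10 genes of the list for anchorage and adhesion had a difference above 0, with a median of 0.34, 3 of them at an unadjusted limma p under 0.05 and 0 past the threshold; 11.4% of all genes were higher at that level. Itgb4, the integrin chain that links keratin filaments to the hemidesmosome, stood at 5.07, 4.87 and 4.87 in young and at 5.12, 5.71 and 5.74 in aged replicates 1, 2 and 3. Bcam, an adhesion receptor for laminin, differed by 0.46 ± 0.13 and the laminin chain gene Lama3 by 0.59 ± 0.20 log2 units. The median deviation of the list was 0.33, 0.35 and 0.35 in aged samples and 0.23, -0.18 and -0.07 in young samples 1, 2 and 3. Aged and young samples did not overlap in this median. They did overlap in the summed level of the list, at 205.5 to 234.3 in young and 233.5 to 327.5 in aged samples. Of the 10 genes 4 lay higher without overlap, as did 19.5% of all genes. All 10 differences stayed above 0 in each alternative. Krt5 and Krt14 had smaller differences than the median of this list, and Krt15 the opposite sign.

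Among the suprabasal keratins Krt10 varied least. It stood at 9.41, 9.44 and 9.54 in young and at 9.41, 9.47 and 9.55 in aged replicates 1, 2 and 3. Each group spans nearly the same range. The difference was 0.016 ± 0.11 log2 units (SE, n = 3 per group, limma adjusted p = 0.95), and its 95% interval of -0.25 to 0.28 covers 0.843 to 1.21 times the young level. The ratio of Krt10 to the basal keratin Krt14 within an array, with the young mean set to 0, was -0.19, 0.08 and 0.11 in young and -0.17, -0.27 and -0.30 in aged replicates 1, 2 and 3, a mean shift of -0.25 with overlapping groups. The sign of the Krt10 difference turned with some scalings: it was -0.07 when the 75th percentile was taken over probes detected on all arrays and 0.16 under quantile normalization.

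Krt2, a type II keratin of late suprabasal cells, stood at 9.27, 9.38 and 9.49 in young and at 9.15, 9.40 and 9.64 in aged replicates 1, 2 and 3. The aged samples enclosed the young ones, with aged replicate 1 lowest and aged replicate 3 highest. The difference was 0.015 ± 0.16 log2 units (SE, n = 3 per group, 95% interval -0.37 to 0.40, limma adjusted p = 0.970), and it was -0.07 with the percentile over probes detected on all arrays.

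Krt1 had the largest difference of the 6 genes and, within the young group, the largest spread. It stood at 8.32, 7.76 and 7.44 in young and at 7.90, 7.33 and 7.0 in aged replicates 1, 2 and 3. The groups overlapped, since aged replicate 1 lay above young replicates 2 and 3. The difference was -0.43 ± 0.31 log2 units (SE, n = 3 per group, 95% interval -1.19 to 0.32, limma adjusted p = 0.486). Its partner Krt10 did not follow it: the ratio of Krt1 to Krt10 within an array, with the young mean set to 0, was 0.54, -0.06 and -0.48 in young and 0.11, -0.52 and -0.93 log2 units in aged replicates 1, 2 and 3. The mean shift of this ratio, -0.45, was smaller than its SD of 0.51 in the young and 0.52 in the aged group. Between same-numbered samples the ratio differed by -0.43, -0.46 and -0.45 for numbers 1, 2 and 3, with an SD of 0.017.

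Set against the young sample of the same number, Krt1 was lower in aged epidermis by nearly the same amount each time, with differences of -0.423, -0.431 and -0.440 log2 units for numbers 1, 2 and 3. These differences had an SD of 0.0086. An SD no larger was found for 18 of 14135 genes, or 0.127%, Krt1 included, and 3 of these had a mean difference at least as large in size. They were Krt1, Camk1g and the stress keratin gene Krt6a, whose differences of -1.01, -1.02 and -1.01 had an SD of 0.0075. This property was looked at after the values had been seen. With the replicate number as a block the difference of -0.43 had an SE of 0.11 (limma unadjusted p = 0.0141, adjusted p = 0.18), so Krt1 did not pass in that fit either, in which 7.63% of genes were lower at an unadjusted p under 0.05. Being lower in 3 of 3 same-numbered comparisons was shared with 14.5% of genes. Krt5 and Krt10 were higher in 3 of 3, as were 32.7% of genes.

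The numbers also go with other properties of the samples. Both samples numbered 1 carried Y-linked transcripts: Ddx3y stood at 2.17 in young and 1.89 in aged replicate 1 and between -6.73 and -6.48 in the other 4 samples, and Krt1 was highest in these samples within each group. Without both of them Krt1 differed by -0.44 (limma adjusted p = 0.238). Young replicates 1 and 2 lay in a different row of the slide from the other 4 samples, and with the row as a block, which rests on young replicate 3 as the only young sample, Krt1 differed by -0.034 (limma adjusted p = 0.983). It differed by -0.19 without young replicate 1 and by -0.23 without aged replicate 3, and by -0.68 without aged replicate 1. The part of the row and of the Y-linked difference in the spread of Krt1 was not tested.

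**Figure D3:**
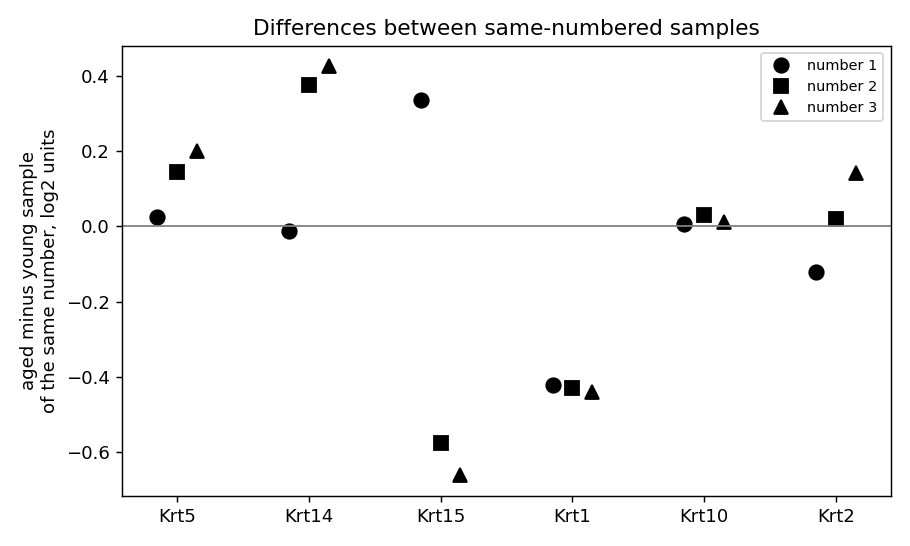
Aged minus young difference in log2 units (y axis) between samples of the same replicate number, for each keratin gene (x axis), with the number as the marker. The 3 differences of Krt1 lie together between -0.440 and -0.423, while those of Krt15 fall on both sides of 0.

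Krt77, the type II keratin gene next to Krt1, was not tested. Its probe was well above background on 2 of 6 arrays, young replicate 3 and aged replicate 1. It stood at -4.89, -4.60 and -4.36 in young and at -3.17, -5.00 and -5.02 in aged replicates 1, 2 and 3. The lowest signal called well above background on an array lay between -5.43 and -4.45, so most of these values lie at the limit of detection, and no fold is given.

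For Krt5, Krt10 and Krt2 a second probe was measured, and these 3 dimmer probes varied more between samples than the brighter ones. The second probe of Krt5 ranged over 0.81 log2 units across the 6 samples, against 0.24 for the first. It stood at 4.79, 3.97 and 4.14 in young and 4.76, 4.57 and 4.39 in aged replicates 1, 2 and 3, so that the groups overlapped where those of the first probe did not. Its difference was 0.27 ± 0.24 (limma over all probes, adjusted p = 0.575). The second probe of Krt10 ranged over 0.30 against 0.15 and differed by 0.089 ± 0.13, and that of Krt2 ranged over 0.78 against 0.49 and differed by -0.092 ± 0.24, the opposite sign to the first. The aged and young values of 26% of all probes did not overlap. No probe of the 9 tested passed the threshold, which 0.0576% of the 29508 probes did. The brighter probes of Krt5, Krt10 and Krt2 had processed signals of 132838 to 204642 units, where the brightest spots of the arrays reached 240729 to 271308. No spot was flagged as saturated, and whether signals near the top of this range are compressed was not tested.

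**Figure D4:**
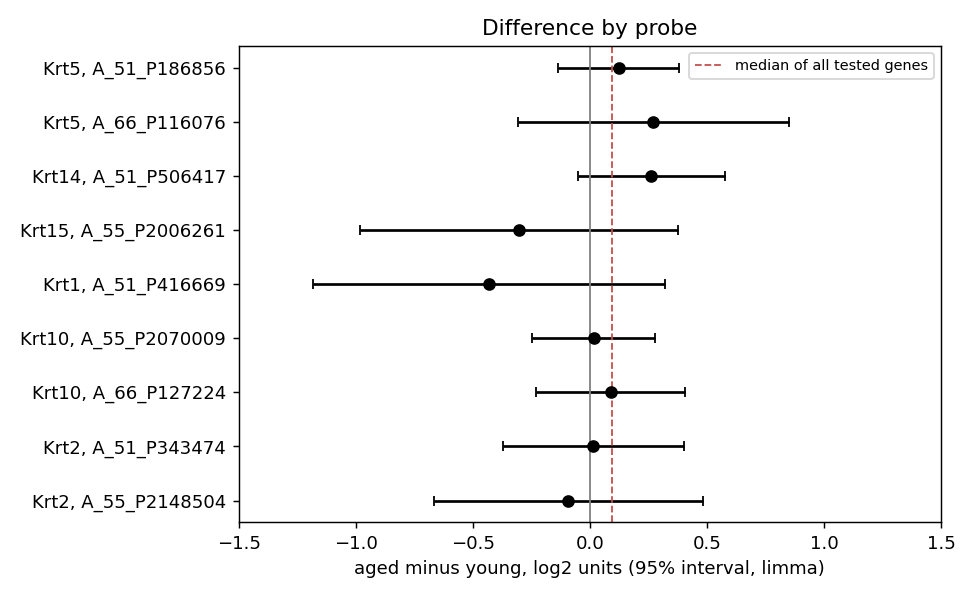
Aged minus young difference in log2 units (x axis) for each tested keratin probe, with its 95% interval from limma. The dashed line marks the median difference of all tested genes, 0.09, and every interval includes 0.

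Transcripts of the proteins that link keratin filaments to junctions and hemidesmosomes were mostly above the young mean. Of 9 linker genes 8 were tested, 7 with a difference above 0, 2 at an unadjusted limma p under 0.05, where 11.4% of all genes were higher, and 0 past the threshold. Their median was 0.14, beside a median of 0.09 over all genes. Plec, which encodes plectin at the hemidesmosome, stood at 5.49, 5.38 and 5.51 in young and at 5.71, 5.79 and 5.92 in aged replicates 1, 2 and 3, without overlap (difference 0.35 ± 0.11, limma adjusted p = 0.214). Dst, the gene of the hemidesmosome plakin BPAG1e, differed by 0.36 ± 0.14, and Dsp, which encodes desmoplakin, by 0.18 ± 0.12. Flg, the gene of filaggrin, which bundles keratin in the upper layers, was not tested. It had no named probe well above background on any array, and a missing probe was not told apart from a low signal. Without aged replicate 3 the linkers divide otherwise, with 3 of 8 above 0 and a median of -0.022, and under quantile normalization 5 of 8 lay above 0.

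None of the regulators of keratin gene transcription passed the threshold. Of 17 tested genes 14 had a difference above 0 and 3 below, with a median of 0.15 beside 0.09 over all genes. An unadjusted limma p under 0.05 was found for 0 of the 17, where 17.7% of all genes had one. Between 11 and 15 lay above 0 in the alternatives, and the median was 0.089 without aged replicate 2 and 0.028 without aged replicate 3. Notch1, a receptor that drives the step out of the basal layer, stood at 0.52, 1.34 and 0.96 in young and at 0.41, 0.63 and 0.29 in aged replicates 1, 2 and 3, with overlap (difference -0.50 ± 0.23, limma adjusted p = 0.308). The AP-2 gene Tfap2a differed by 0.31 ± 0.17, the glucocorticoid receptor gene Nr3c1 by 0.26 ± 0.13 and Zfp750, a differentiation factor, by 0.28 ± 0.18. Companion genes of the suprabasal layers lay close to the young mean, like Krt10 and Krt2. Of 13 tested, 7 had a difference above 0, 1 at an unadjusted limma p under 0.05, where 11.4% of all genes were higher, and their median was 0.02. Aged replicate 1 decides this count: without it 13 of 13 lay above 0, with a median of 0.17, while 4 of 13 did with the percentile over probes detected on all arrays. The gene at that p was Lgals7, which encodes galectin-7, at 0.32 ± 0.11 (limma adjusted p = 0.218). The spinous layer genes Dsg1a and Krtdap differed by 0.28 ± 0.16 and 0.12 ± 0.12.

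The stress keratins, which replace part of the interfollicular set in wounded epidermis, gave a wide range of differences, from -1.01 to 0.0037 log2 units with a median of -0.55. With the mean of a gene's probes 2 of the 4 lay above 0 and the median was -0.29. Krt6a stood at 5.11, 4.98 and 4.56 in young and at 4.11, 3.96 and 3.55 in aged replicates 1, 2 and 3, without overlap, and differed by -1.01 ± 0.21 (limma adjusted p = 0.131). Krt6b and Krt17 differed by -0.53 ± 0.21 and -0.58 ± 0.28. Krt16, with 0.0037 ± 0.78, ranged from 4.6 in aged replicate 1 to 7.51 in aged replicate 2. None of the 4 passed the threshold, and the difference between these genes and the interfollicular keratins was not tested.

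The genes closest to each keratin were found by the root mean square difference of values centred on each gene's mean over the 6 samples, among 13076 named genes well above background on every array. Over so few samples such likeness is a description only. Krt14 was followed most closely by Btbd11 (0.011 log2 units), Acly (0.027), which encodes ATP citrate lyase, and Sf3b5 (0.027). The nearest genes of Krt1, Glis1, Rai14 and Abca1, lay 0.11, 0.12 and 0.14 away, against its own root mean square deviation of 0.43. Krt15 was nearest to Cst6, which encodes the cysteine protease inhibitor cystatin E/M (0.079), Fam149a (0.081) and Marcksl1 (0.082). Cst6 stood at 8.35, 8.52 and 8.18 in young and at 8.79, 7.95 and 7.61 in aged replicates 1, 2 and 3, with the same order of aged samples as Krt15. Krt5 and Krt10, which varied little, were nearest to other steady genes, among them the ribosomal protein genes Rps16 (0.019) for Krt5 and Rps12 (0.018) for Krt10. Among the keratins themselves Krt5 and Krt10 were closest (0.069), ahead of the filament partners Krt5 and Krt14 (0.096). Ovol2, a transcription factor gene of epithelial cells, also lay close to Krt10 (0.020). Wfdc17 (0.026), Ttc16 (0.029) and Dnajb2 (0.031) were nearest to Krt2, Mospd2 (0.014) to Krt10, and Mrpl10 and Cdk7 (0.019 and 0.020) to Krt5.

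**Figure D5:**
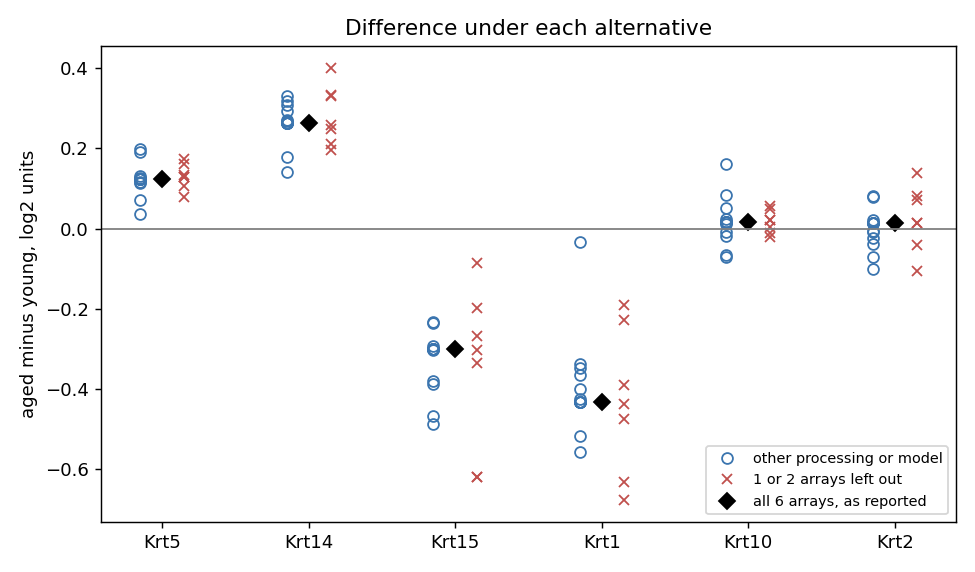
Aged minus young difference in log2 units (y axis) of each keratin gene (x axis) with all 6 arrays as reported, under other processing or models, and with 1 or 2 arrays left out. Krt14 and Krt5 stay above 0 and Krt15 and Krt1 below it in every setting shown, while Krt10 and Krt2 lie on both sides.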

How the data were processed

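Cy3-labelled cDNA was measured on 1-colour Agilent arrays, per the labels' protocols. Per the file headers, all 6 were on 1 slide, scanned once and quantified by Feature Extraction 11.5.1.1. The deposited processed signal is a linear intensity. Per the file headers, background was subtracted and spatial trends removed array by array, with no scaling across arrays. The deposited flags (other values of 0 or 1 per spot) mark detection, saturation and outliers. The authors' table of log2 values matched the scanner values centred on each probe's median, with a correlation of at least 0.9999 on each array. Its column medians were -0.013, -0.021, -0.021, -0.0087, 0.016 and 0.071 for young and aged replicates 1, 2 and 3.

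Control spots and outlier spots (116 to 170 per array) were removed, and the remaining spots of each probe averaged. The 75th percentile was 230.2 to 300.3 units, and 50.02% to 54.4% of probes were well above background. RefSeq accessions named 28331 probes. A probe was tested where well above background on at least 3 arrays, and the brightest represented a gene, giving 14135 genes and 10931 unnamed probes. Groups were compared with limma 3.58.1 in R 4.3.3 (two-sided, no covariate, Benjamini-Hochberg over all 25066 features), checked on simulated data. With 3 against 3, the smallest p of an exact permutation test is 0.1, and no such test is printed. After removal of group means, same-numbered samples correlated across features with r = 0.41, 0.26 and 0.10, so the replicate block is given as a paired fit. No label says what the numbers share, and young replicate 2 correlated more closely with aged replicate 3 (0.29). The members and lists were chosen with earlier results of these data known. The genes named are the 7 keratins, up to 4 per list by unadjusted p, and the 3 nearest genes of each keratin; 1 gene that this rule names is not reported here. With 6 arrays, their number limits the precision.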

Additional observations from a re-analysis of the deposited data

How the results depend on the processing

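Each of 21 alternatives, 2 of them (the variance prior with a trend and gene-by-gene array weights) chosen after seeing the data, kept Krt5 and Krt14 above 0 and Krt15 and Krt1 below it. Krt5 ranged from 0.04 to 0.20, Krt14 from 0.14 to 0.40, Krt15 from -0.62 to -0.086 and Krt1 from -0.68 to -0.034 log2 units. The number of keratin genes past the threshold was 0 in all alternatives except REML array weights, with 2: Krt14 (0.31, limma adjusted p = 0.0206) and Krt15 (-0.49, limma adjusted p = 0.0237). That estimate stopped before it converged, and by the gene-by-gene method the adjusted p was 0.0732 and 0.0965. The alternatives of Krt14 ranged in adjusted p from 0.0206 to 0.711 and those of Krt15 from 0.0237 to 0.890. Krt10 turned below 0 with the percentile over detected probes (-0.0696), both array weights (-0.019 and -0.0085) and the slide row as a block (-0.065), and ranged from -0.022 to 0.057 with single arrays left out. Krt2 did so with the detected percentile (-0.071), normexp (-0.0060), the mean of a gene's probes (-0.039), both array weights (-0.024 and -0.0073) and the row (-0.099), and ranged from -0.11 to 0.14 with single arrays left out. The causes of these changes were not tested. Of all genes 11 passed (6 higher, 5 lower), against 3 with detection required on all 6 arrays, 1 with no filter, 21 with median scaling (15 higher, 6 lower), 7 with quantile normalization, 15 with normexp (11 higher, 4 lower), 4878 and 1887 with REML and gene-by-gene array weights, 0 with the slide row as a block (858 at an unadjusted p under 0.05), 215 without both samples numbered 1, and 0 to 809 without single arrays (1321 to 2411 at an unadjusted p under 0.05 where 0 passed). The replicate block gave 0 (2710 at an unadjusted p under 0.05) and changed no call of a keratin gene. The median of all genes moved between 0.007 and 0.16 with the scaling. Among the 7 keratin genes signal over background limits only Krt77. In other lists some aged values also lay below detection. They include Col3a1 on all 3 aged arrays and Col1a1 in aged replicate 3. Of 8 inner root sheath keratins 6 were detected in aged replicate 3, and of 6 Langerhans cell genes 4 in aged replicate 1.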
